A study of Mus musculus with 768 samples.

Results

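The cells described here are matrix cancer-associated fibroblast-like (mCAF-like) cells of mouse mammary tumors, split by whether they carried reads of *Tnc*, the gene of the extracellular matrix glycoprotein tenascin-C. They come from 768 single-cell Smart-seq2 libraries in which cells of 2 tumors of 14-week-old FVB/N-Tg(MMTVPyVT)634Mul/J (MMTV-PyMT) mice had been depleted of EpCAM+, CD45+, CD31+ and NG2+ cells by sorting, and all cells are untreated. Whether the tumors came from different animals is not given in the sources used here. The transgene places the polyoma middle T oncogene under the mouse mammary tumor virus promoter, which is active mainly in mammary epithelium. Each tumor filled 1 plate of 384 wells, which makes n = 2 at the level of tumors, with tumor and plate impossible to tell apart and cells of a plate not replicates. A well was kept with at least 10000 endogenous reads and 1000 genes, which left 717 wells. A cell was mCAF-like when the mean log2(RPKM + 1) of *Dcn*, *Lum*, *Mfap5*, *Olfml3*, *Smoc2* and *Serpinf1* was at least 4 and above the mean of the vascular CAF (vCAF) genes *Rgs5*, *Higd1b*, *Kcnj8*, *Rgs4*, *Abcc9* and *Gja4*. Of 186 mCAF-like cells, 105 had at least 5 *Tnc* reads (Tnc-positive, 48 in tumor 1 and 57 in tumor 2) and 66 had 0 (Tnc-negative, 42 and 24). The other 15 cells, with 1 to 4 reads, entered neither class. The classes were thus chosen by measured *Tnc* reads, and *Tnc* and the 12 gate genes are given as a description with no test.

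Tenascin-C is a large multimeric glycoprotein that is scarce in most resting adult tissues and abundant in developing, healing and tumor stroma. Fibroblasts are one of its sources, it binds fibronectin, integrins and syndecans, and it modulates how cells adhere to the matrix. In tumors it is a common component of the desmoplastic matrix together with fibrillar collagens and periostin. *Tnc* lies on chromosome 4, from 63959785 to 64047015 on the minus strand of GRCm38, the assembly of the build mm10 on which the reads were counted.

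The 250 bases before the annotated start site are printed for the gene that defines the split, for *Mmp10*, the only gene called in the main test once *Tnc* and the gate genes are set aside, for *Lrrc15*, a gene read in more Tnc-positive than Tnc-negative cells, and for *Apod*, the gene of lowest p among those that were lower. They are RefSeq sequences of GRCm38.p6 on the strand of the gene, with capitals for matches, on either strand, to TATAAA, to the AP-1 motif TGANTCA and to the TEAD motif GGAATG.
Tnc (chr4:64047016-64047265, minus strand): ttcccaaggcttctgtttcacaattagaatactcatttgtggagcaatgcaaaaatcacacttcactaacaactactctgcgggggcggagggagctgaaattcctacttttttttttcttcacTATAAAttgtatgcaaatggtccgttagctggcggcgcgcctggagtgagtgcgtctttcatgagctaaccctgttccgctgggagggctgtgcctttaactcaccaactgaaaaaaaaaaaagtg
Mmp10 (chr9:7502092-7502341, plus strand): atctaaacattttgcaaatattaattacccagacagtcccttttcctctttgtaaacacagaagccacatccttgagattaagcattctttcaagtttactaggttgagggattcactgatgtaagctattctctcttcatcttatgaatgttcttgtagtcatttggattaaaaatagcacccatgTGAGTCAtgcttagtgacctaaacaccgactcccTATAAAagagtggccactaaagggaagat
Lrrc15 (chr16:30283255-30283504, minus strand): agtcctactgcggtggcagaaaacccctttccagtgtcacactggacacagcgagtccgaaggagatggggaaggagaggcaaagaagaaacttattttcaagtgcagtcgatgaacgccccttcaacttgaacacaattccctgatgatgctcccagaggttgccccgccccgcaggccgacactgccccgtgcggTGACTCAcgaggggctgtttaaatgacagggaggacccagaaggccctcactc
Apod (chr16:31314809-31315058, minus strand): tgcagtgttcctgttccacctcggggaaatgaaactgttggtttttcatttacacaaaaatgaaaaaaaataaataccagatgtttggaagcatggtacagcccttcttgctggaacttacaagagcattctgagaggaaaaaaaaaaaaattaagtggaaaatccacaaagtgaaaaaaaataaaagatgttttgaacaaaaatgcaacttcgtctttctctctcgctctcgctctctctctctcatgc
*Tnc* has 2 annotated start sites, and the window shown lies before the outer one. TATAAA was found before *Tnc* and *Mmp10*, the AP-1 letters before *Mmp10* and *Lrrc15*, and none of the 3 motifs before *Apod*. Of 32841 RefSeq promoter windows of the same 250 bases, 12.4% hold TATAAA, 6.75% hold TGANTCA and 12.6% hold GGAATG. A match is a description of these letters only.

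*Tnc* was spread over a wide range within the mCAF-like cells. In Tnc-positive cells of tumor 1 the lowest log2(RPKM + 1) was 2.02, the median 6.51 and the highest 9.99, with up to 1585 reads in a cell. In tumor 2 these values were 1.65, 5.78 and 10.55, with up to 5417 reads. Summed over the cells of a class, *Tnc* stood at 1256 and 1850 CPM (reads scaled to the library total, with edgeR's TMM factors) in the Tnc-positive libraries. The 5 cells with most *Tnc* reads held 39.7% and 50.8% of all mCAF-like *Tnc* reads of their tumor. Just inside the threshold, 4 and 3 cells had 5 to 9 reads, and just outside it 6 and 9 cells had 1 to 4. Most Tnc-positive cells were far above the threshold, since 41 of 48 and 46 of 57 had at least 20 reads.

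Tnc-positive cells made up 50.0% of the mCAF-like cells in tumor 1 (exact binomial 95% interval 39.6 to 60.4%) and 63.3% in tumor 2 (52.5 to 73.3%). The mean over both tumors was 56.7% with an SD of 9.43 (n = 2). These intervals cover the sampling of cells within a plate only, not the spread between tumors. The share of cells with at least 5 *Tnc* reads was 28.4% (22.97 to 34.2%) and 25.96% (20.5 to 32.1%) in vCAF-like cells, which met the same gate with the gene sets exchanged, and 21.4% and 23.8% in the 14 and 21 cells of neither gate. Cells with at least 50000 reads were also thinned to that number, others being left out, and then needed at least 5 *Tnc* reads. This gave 46.1% of 89 and 55.3% of 85 mCAF-like cells and 23.6% of 254 and 22.3% of 224 vCAF-like cells. The share was thus higher in mCAF-like than in vCAF-like cells of each tumor, thinned or not, which is a description of the reads that also defined the classes and was not tested.

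**Figure D1:**
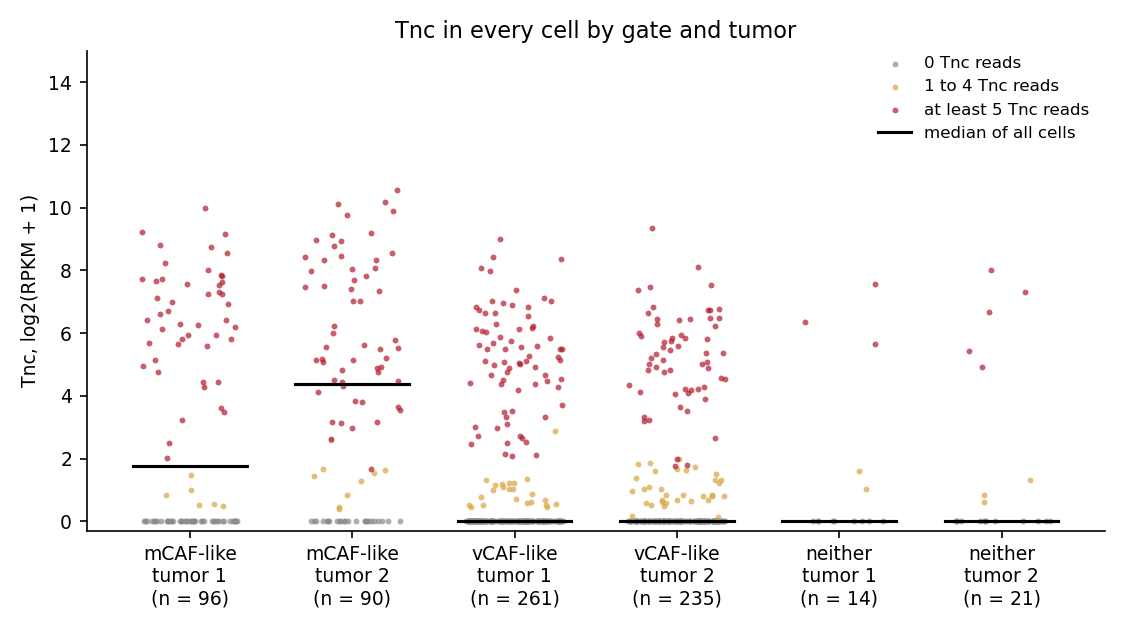
*Tnc* as log2(RPKM + 1) in each of the 717 cells (points), by gate and tumor, with the colour giving the number of *Tnc* reads and the black line the median over all cells of a column. The mCAF-like columns have medians of 1.75 and 4.38, and both vCAF-like medians are 0.

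Both classes carried mCAF markers outside the gate, namely *Pdgfra*, *Col14a1*, *Fbln1*, *Fbln2*, *Svep1*, *Lox*, *Loxl1* and *Cxcl14*, all 8 with reads in each of the 4 libraries and a summed level, here as CPM without TMM factors, of 7765 and 8121 in Tnc-negative against 8591 and 8528 in Tnc-positive cells. Only *Fbln2* was higher in Tnc-positive cells of both tumors (989.6 and 1584 against 2291 and 2974 CPM). *Pdgfra*, *Fbln1*, *Loxl1* and *Cxcl14* were lower in both, and *Col14a1*, *Svep1* and *Lox* went in opposite directions. *Cdh5* and *Pecam1* of endothelium summed to at most 1.25 CPM, *Ptprc* and *Cd68* of immune cells to at most 3.83 CPM, and *Epcam*, *Krt8* and *Krt18* of epithelium to 14.6 and 25.9 CPM in Tnc-negative and 8.34 and 22.2 CPM in Tnc-positive cells. By cells the order was the opposite, with a read of any of these 3 genes in 16.7% and 20.8% of Tnc-negative and 29.2% and 35.1% of Tnc-positive cells, and a read of *Epcam* in 2 of 42 and 2 of 24 against 6 of 48 and 11 of 57. A read of *Ptprc* or *Cd68* was found in 2.38% and 4.17% of Tnc-negative and 16.7% and 5.26% of Tnc-positive cells. Mural transcripts were uneven between the classes. The mean of the 6 vCAF gate genes reached 4 in 7 of 42 and 2 of 24 Tnc-negative cells and in 0 of 48 and 3 of 57 Tnc-positive cells, and the 6 vCAF markers outside the gate (*Notch3*, *Cspg4*, *Mcam*, *Des*, *Nid2* and *Epas1*), with 0 of them at 0 in any library, summed to 798 and 454 CPM against 426 and 569 CPM. The dCAF markers *Scrg1*, *Mia*, *Sox9*, *Sox10* and *Trf* summed to 400.1 and 57.1 CPM in Tnc-negative and 31.9 and 170.0 CPM in Tnc-positive cells, and the cycling markers *Top2a*, *Birc5*, *Mki67* and *Ccnb1* to 2.64 and 186.1 CPM against 108.2 and 16.5 CPM, both in opposite directions in the tumors. Tnc-positive cells were also deeper, with a median of 283133 and 238373 endogenous reads against 236123.5 and 159705.5, and a median of 5843 and 5566 genes against 5218.5 and 5310. The ERCC spike-ins took a median of 5.57% and 6.35% of reads in Tnc-positive and 8.13% and 7.05% in Tnc-negative cells. The part of depth and of mural and epithelial transcripts in the results below was not tested beyond the thinned cells given there and the stricter gates and exclusion of *Epcam* cells given at the end. Among the mCAF-like wells, 0 held the same counts as another well.

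The question was which other genes differ between matrix CAFs with and without *Tnc* transcripts. Reads were summed over the cells of each class in each tumor, and the 4 libraries were compared with edgeR's quasi-likelihood test with the tumor as a block, over the 11405 genes whose mean RPKM reached 1. With *Tnc* and the gate genes set aside, 1 gene passed an adjusted p of 0.05, *Mmp10*, which was higher in Tnc-positive cells (0.00877% of genes tested), and 0 genes passed in the lower direction (0%). At an unadjusted p under 0.05 there were 367 higher and 372 lower genes. The summed libraries are dominated by the cells with most reads of a gene, so the mean log2(RPKM + 1) over the cells of each library, in which every cell weighs the same, was compared as well, with limma and the same block. By that test 138 genes rose (1.21%) and 35 fell (0.307%), the median of all genes being shifted by 0.14 toward the Tnc-positive, deeper cells. Its p-values rest on 1 residual degree of freedom and on a spread that limma took as common to genes of the same level. Cells were also thinned to 50000 reads, shallower ones being left out, and here kept the class given by their unthinned *Tnc* reads. The split itself could thus still follow depth. Of these cells, 38 and 21 were Tnc-negative and 46 and 56 Tnc-positive. On them edgeR called 13 genes higher (0.114%) and 9 lower (0.0789%), and limma on the mean log2(CPM + 1) of thinned cells called 7 (0.0614%) and 3 (0.0263%), with a shift of 0.08. All 10 were among the 173 that limma called on all cells, so most of the limma calls named below were lost in thinned cells, which are also fewer. In what follows, "rose" and "fell" name the test that was passed, and the edgeR log2 fold change is the quantity unless mean log2(RPKM + 1) is named.

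*Mmp10* encodes stromelysin-2, a matrix metalloproteinase. It had 1 read in each Tnc-negative library, 1546 reads in 6 of 48 Tnc-positive cells of tumor 1 and 7756 reads in 7 of 57 of tumor 2. Its log2 fold change was 10.79 ± 0.41 (SE; adjusted p = 0.0273), and the ratio of the libraries was 1225 (219.5 to 48400, counting error only) in tumor 1 and 2710 (486.3 to 107100) in tumor 2. The SE was derived from the test statistic and is much narrower than these counting intervals, so it overstates the precision of the fold. A single cell held 46.9% and 85.2% of the reads, so the call rests on few cells. Without the tumor as a block its adjusted p was 0.221.

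Among collagens, the principal fibers of the matrix and the proteins that coat them, 23 of 24 listed genes passed the filter. None passed the edgeR test, and limma called 6 higher and 0 lower. The list's median log2 fold change was 0.25 (0.39 in tumor 1 and 0.19 in tumor 2) against 0.03 for all genes, with 12 genes higher and 7 lower in both tumors. For scale, 28.3% of all genes were higher and 25.9% lower in both tumors. *Col12a1*, a fibril-associated collagen (chromosome 9, 79598987 to 79721141), rose by limma. It was read in every cell of both classes, with a mean log2(RPKM + 1) of 6.93 and 6.62 in Tnc-negative and 8.87 and 8.38 in Tnc-positive cells, a difference of 1.85 ± 0.27 (SE; adjusted p = 7.82e-09). In the summed libraries it stood at 3252 and 3301 CPM against 9600 and 7774 CPM (log2 fold change 1.40 ± 0.16, adjusted p = 0.406). The Tnc-positive libraries were higher in both tumors by either measure, while single cells of the classes overlapped. *Col1a1*, an abundant fibrillar chain, also rose by limma (0.76 on the log2(RPKM + 1) scale, adjusted p = 0.000139) with a smaller summed difference of 0.46 ± 0.13. In thinned cells *Col1a1* did not pass limma (adjusted p = 0.533), and of the 6 collagens only *Col12a1* did (0.00108). *Col3a1* did not pass either test (log2 fold change -0.24 ± 0.15). The basement membrane chains *Col4a1* and *Col4a2* went the other way without passing (-0.63 and -0.77), and both are also expressed by mural cells. Of the genes that modify and cross-link collagen, 23 were tested and limma called *Plod3* and *P4ha3*, a lysyl and a prolyl hydroxylase, higher, while the abundant *Sparc* and *Pcolce* differed by -0.01 and 0.09.

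Matricellular proteins, which signal from the matrix without building it, held several of the larger differences. Of the 18 members with counts, 16 were tested, and limma called 7 higher (*Tnn*, *Thbs1*, *Thbs2*, *Spp1*, *Cyr61*, *Wisp1* and *Tgfbi*) and 2 lower (*Wisp2* and *Sparcl1*). *Spp1*, the gene of osteopontin, had a median log2(RPKM + 1) of 4.69 in Tnc-negative and 8.74 in Tnc-positive cells of tumor 1, with single cells from 0 to 12.67 and from 0 to 16.26. In tumor 2 the medians were 5.86 and 9.09, with cells from 0 to 14.05 and from 0 to 16.66. Its log2 fold change was 2.61 ± 0.36, and it rose in both tests on thinned cells (adjusted p = 0.00824 in edgeR and 0.00586 in limma) and in limma on all cells (1.17e-13), but had an adjusted p of 0.406 in the main test. *Tnn*, the gene of tenascin-W and a close relative of *Tnc*, was read in 7.14% and 8.33% of Tnc-negative and 22.9% and 22.8% of Tnc-positive cells, with 58 and 21 reads against 3179 and 1680, of which a single cell held 70.7% and 95.2% against 57.2% and 54.3%. It rose in edgeR on thinned cells (adjusted p = 0.00132), while in the main test its log2 fold change of 5.15 ± 0.33 had an adjusted p of 0.113. *Thbs1*, thrombospondin 1, rose in edgeR on thinned cells (adjusted p = 0.0311), with mean log2(RPKM + 1) of 3.39 and 2.62 against 4.95 and 5.10. *Postn*, the gene of periostin, was at a mean of 10.84 and 10.77 in Tnc-negative and 11.13 and 11.21 in Tnc-positive cells and passed neither test.

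In the elastic and microfibril matrix, 24 of 26 listed genes were tested, with a median of -0.21, 5 higher and 8 lower in both tumors. *Fbln2* and *Emilin1* rose and *Efemp1* and *Ltbp1* fell by limma. *Fbln2*, fibulin 2, stood at 993.5 and 1576 CPM in Tnc-negative and 2326 and 2977 CPM in Tnc-positive libraries. *Fn1*, the gene of fibronectin (0.22 ± 0.17), and *Bgn*, the gene of biglycan (-0.01 ± 0.13), passed neither test.

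Genes of the contractile apparatus, by which myofibroblasts pull on the matrix, formed the list with the highest share of members higher in both tumors. Of 18 listed genes 15 passed the filter, and 14 of these were higher in both tumors and 1, *Mylk*, lower in both. The median log2 fold change was 1.01 (0.71 in tumor 1 and 1.35 in tumor 2), and 1.30 in the log2 mean of thinned cells. Of all genes, 28.3% were higher in both tumors. None of the list passed the main test, and 12 had an unadjusted p under 0.05 in the higher direction, against 367 of all 11405 genes tested. Limma called 7 higher (*Acta2*, *Tagln*, *Cnn2*, *Tpm2*, *Actg2*, *Palld* and *Csrp1*) and 0 lower. *Acta2*, smooth muscle alpha actin, had a median log2(RPKM + 1) of 5.26 and 5.10 in Tnc-negative and 7.11 and 6.86 in Tnc-positive cells, and a log2 fold change of 1.42 ± 0.30 (adjusted p = 0.57 in edgeR and 0.00187 in limma). *Tagln*, transgelin, was read in 64.3% and 50.0% of Tnc-negative and 79.2% and 78.9% of Tnc-positive cells. Its medians were 4.43 and 0.63 against 6.40 and 6.81, and its limma difference was 2.39 ± 0.39 (adjusted p = 7.74e-07). None of the 7 passed limma on thinned cells, with 0.185 for *Tagln* and 0.197 for *Acta2*. *Acta2* and *Tagln* are also mural genes. The longer list of mural markers outside the gate had a median of -0.79 (-1.76 in tumor 1 and -0.28 in tumor 2), with 1 of 17 higher and 9 lower in both tumors. Of these 17, 7 had an unadjusted p under 0.05 in the lower direction, against 372 of all 11405 genes tested. Limma called *Gucy1a3*, a guanylate cyclase subunit, lower. The 6 vCAF markers outside the gate summed lower in Tnc-positive cells of tumor 1 and higher in those of tumor 2, as given above. *Actg2* had 4 and 0 reads in Tnc-negative and 572 and 3844 in Tnc-positive libraries, at least 447.7-fold in tumor 2 against a floor of 3 reads, and rose in edgeR on thinned cells (adjusted p = 0.00555). Its coding sequence is close to that of *Acta2*, so reads could have been split between the actins.

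Of 30 listed genes used to mark activated CAFs 29 were tested, and 13 were higher and 12 lower in both tumors. The median was -0.08 in the summed libraries, but 0.41 in the log2 mean over cells and 0.36 over thinned cells, against 0.14 and 0.08 for all genes, and 0.08 and 0.04 when each tumor was fitted alone. Limma called 6 higher, among them *Lrrc15*, *Cthrc1*, *Inhba*, *Sulf2* and *Wisp1*, and *S100a4* lower. *Lrrc15*, a membrane protein with leucine-rich repeats known from myofibroblast-like CAFs (chromosome 16, 30269302 to 30283254), was found in more cells of the Tnc-positive class. It was read in 78.6% and 54.2% of Tnc-negative and 95.8% and 94.7% of Tnc-positive cells, with medians of 6.51 and 6.34 against 9.05 and 8.57. Its mean log2(RPKM + 1) differed by 3.14 ± 0.33 (limma, adjusted p = 3.16e-18), and it also passed in thinned cells by limma (adjusted p = 0.000131). In the summed libraries the log2 fold change was only 0.90 ± 0.15 (adjusted p = 0.428), and the highest Tnc-negative cells, at 10.53 and 9.85, lay within the range of the Tnc-positive cells. *Fap*, *Pdgfra* and *Pdgfrb* differed by -0.30, -0.14 and -0.41 and passed neither test. *Serpine2*, protease nexin 1, had a log2 fold change of -0.41 ± 0.14 in the summed libraries and a difference of 0.41 in mean log2(RPKM + 1), in opposite directions and without passing.

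Of 26 metalloproteinase, plasminogen activator and inhibitor genes 23 were tested, with a median of 0.33 (0.03 in tumor 1 and 0.65 in tumor 2). Besides *Mmp10*, limma called *Mmp9*, *Mmp13*, *Adam9* and the inhibitor *Timp1* higher and none lower, and *Mmp9* also rose in edgeR on thinned cells (adjusted p = 0.0223). *Mmp9* was near the floor in the Tnc-negative libraries, with 1 and 0 reads against 602 and 473 in the Tnc-positive ones. *Timp1* was high throughout, with a mean log2(RPKM + 1) of 8.58 and 9.17 in Tnc-negative and 9.70 and 10.05 in Tnc-positive cells. *Mmp13*, a collagenase, was read in 31.0% and 12.5% against 47.9% and 38.6% of cells. *Mmp2* and *Mmp14*, a gelatinase and its membrane-bound activator, differed by -0.17 and 0.42 and passed neither test.

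Genes of resident and adventitial fibroblasts were mostly lower in Tnc-positive cells. Of 30 listed genes 28 were tested, 21 were lower and 1, *Gpx3*, higher in both tumors, and the median was -1.27 (-1.05 in tumor 1 and -1.77 in tumor 2), against -0.56 in the log2 mean over cells and -0.86 over thinned cells. Of all genes, 25.9% were lower and 28.3% higher in both tumors. None of the list passed the main test, and 16 had an unadjusted p under 0.05 in the lower direction, against 372 of all 11405 genes tested. Limma called *Apod* and *Il33* lower and *Gpx3* and *Igfbp4* higher. *Apod*, the lipid carrier apolipoprotein D, stood at 1764 and 2103 CPM in Tnc-negative and 489 and 458.4 CPM in Tnc-positive libraries. Its median log2(RPKM + 1) was 7.93 and 8.89 against 5.40 and 6.23, both Tnc-positive libraries being lower while single cells overlapped. The log2 fold change was -2.02 ± 0.18 (adjusted p = 0.341), and *Apod* fell in both tests on thinned cells (adjusted p = 0.0286 in edgeR and 0.0248 in limma). Under the alternatives run its difference stayed negative but ranged from -2.48 to -0.84. *Pi16*, *Dpt*, *Sema3c* and *Cd34*, known from adventitial and progenitor-like fibroblasts, were lower in both tumors at -1.50, -2.17, -4.12 and -2.26. Of these *Sema3c* fell in edgeR on thinned cells (adjusted p = 0.0286), yet it was read in only 5 and 4 Tnc-negative and 3 and 4 Tnc-positive cells. *Cd34* is also a marker of endothelial cells. Of that list of 12 genes, 7 were below the filter, *Cdh5* and *Pecam1* among them. The 5 tested (*Tek*, *Flt1*, *Ramp2*, *Plvap* and *Esam*) had a median of -0.56 (-1.22 in tumor 1 and -0.0004 in tumor 2). Their part in the difference of *Cd34* was not tested. *Gpx3*, an extracellular glutathione peroxidase, went against its list, with 699.8 and 586.1 CPM in Tnc-negative and 1842 and 1140 CPM in Tnc-positive libraries. It rose by limma on all cells (2.32 ± 0.30) and on thinned cells (adjusted p = 0.0243).

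**Figure D2:**
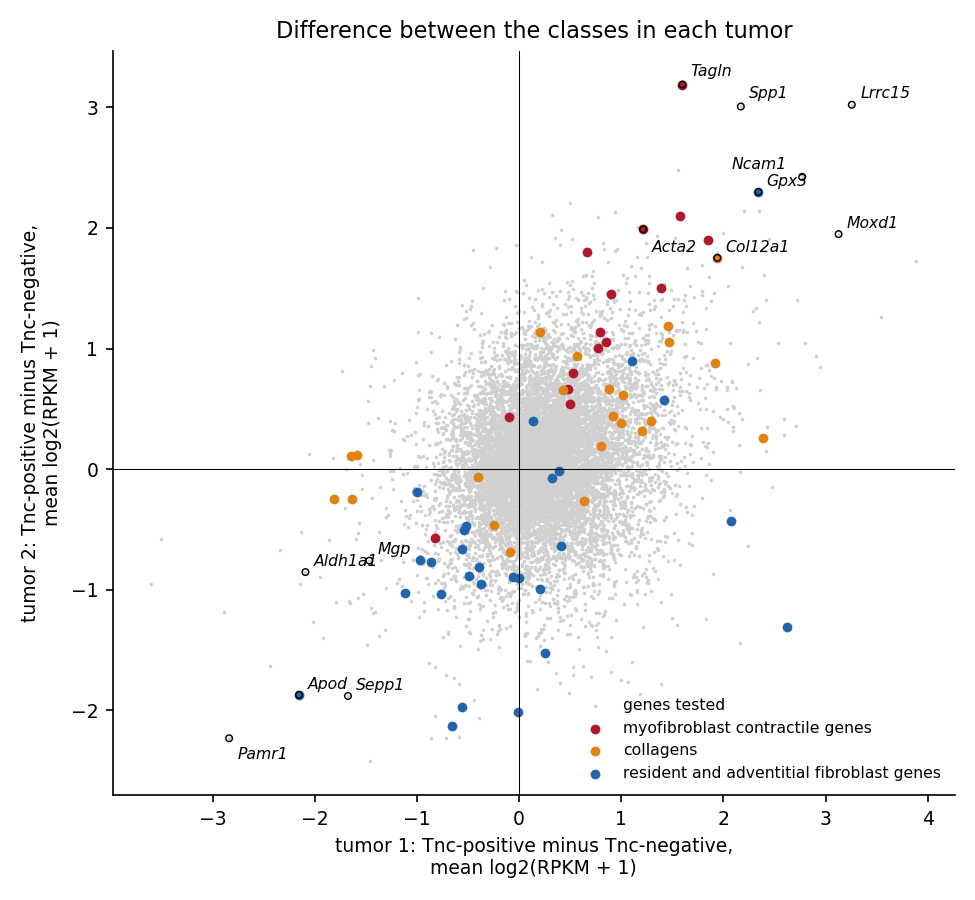
Difference in mean log2(RPKM + 1) between Tnc-positive and Tnc-negative mCAF-like cells in tumor 1 (horizontal) and tumor 2 (vertical) for the genes tested (grey), without *Tnc* and the gate genes. On this measure 13 of 15 contractile genes (red) and 15 of 23 collagens (orange) lie above 0 in both tumors, and 17 of 28 resident fibroblast genes (blue) below 0 in both.

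Outside the lists, *Ncam1*, *Moxd1* and *Pamr1* passed both tests on thinned cells. *Ncam1*, a neural cell adhesion molecule, had medians of 0.67 and 0 in Tnc-negative and 5.69 and 4.63 in Tnc-positive cells, a log2 fold change of 2.38 ± 0.28 and adjusted p-values on thinned cells of 0.0203 in edgeR and 0.00586 in limma. *Moxd1*, a monooxygenase-like protein, had 209 and 0 reads in Tnc-negative and 7321 and 2855 reads in Tnc-positive libraries, at least 332.5-fold in tumor 2, and rose in the same tests (0.00728 and 0.0278). *Pamr1*, a secreted serine protease-like protein, was read in 66.7% of Tnc-negative cells in each tumor and in 20.8% and 36.8% of Tnc-positive cells. It fell in both tests on thinned cells (0.0311 and 0.0230), with a log2 fold change of -2.15 ± 0.26. Of 2 genes named after their values were seen, *Sepp1*, the gene of selenoprotein P, fell in thinned cells by limma only (0.0243), from medians of 8.75 and 8.81 to 7.92 and 7.33. The other, *Mgp*, the gene of matrix Gla protein, was read in every cell, with a mean log2(RPKM + 1) of 12.99 and 12.95 against 11.52 and 12.20. It fell by limma on all cells (-1.11, adjusted p = 9.84e-27) but not on thinned cells (0.197).

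**Figure D3:**
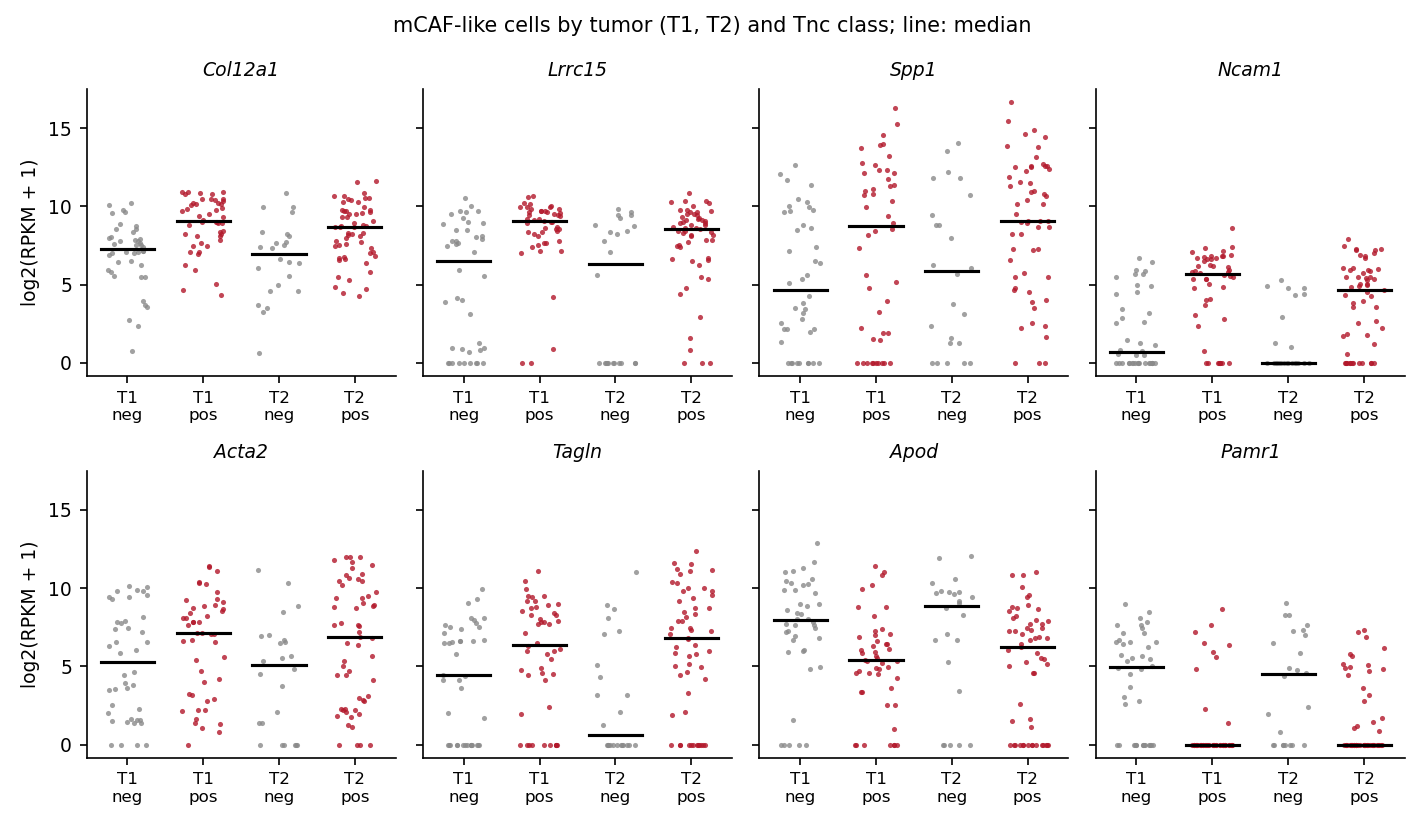
log2(RPKM + 1) of 8 genes in single mCAF-like cells of tumor 1 (T1) and tumor 2 (T2), Tnc-negative in grey and Tnc-positive in red, with the class median as a line. *Lrrc15* is read in 95.8% and 94.7% of Tnc-positive cells and *Pamr1* in 20.8% and 36.8%, and single cells of both classes overlap for every gene shown.

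By the rule for named genes, the 5 genes of lowest p in each direction that moved alike in both tumors and were read in at least 20% of cells of the higher class were *Tnn*, *Col12a1*, *Ncam1*, *Aqp5* and *Col8a2* (higher) and *Apod*, *Kitl*, *Pamr1*, *Htra3* and *Dio2* (lower). None of the 10 passed the main test, with adjusted p-values from 0.113 to 0.406, and besides the genes described above *Kitl* (0.0448) and *Htra3* (0.0419) fell in edgeR on thinned cells. *Aqp5*, a water channel, had a log2 fold change of 2.56 ± 0.30 and *Col8a2*, a short-chain collagen, of 1.89 ± 0.24. *Kitl*, the ligand of the receptor Kit, differed by -2.04 ± 0.23, *Htra3*, a secreted serine protease, by -1.92 ± 0.23 and *Dio2*, a deiodinase that activates thyroid hormone, by -2.20 ± 0.28.

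Receptors and binding partners of tenascin-C had a median close to that of all genes in the fit of both tumors. Of 19 listed genes 14 were tested, with a median of 0.03, 4 higher and 1 lower in both tumors. The median was 0.005 in tumor 1 and 0.47 in tumor 2, against 0.003 and 0.04 for all genes. *Sdc1*, the gene of syndecan 1, rose by limma (1.74 on the log2(RPKM + 1) scale, adjusted p = 0.00101). *Itga5*, the alpha chain of a fibronectin receptor, had log2 fold changes of 1.52 and 1.51 in the tumors without passing. *Anxa2* (-0.21 ± 0.22), *Itgb1* (0.50 ± 0.26), *Itgav* (-0.05) and *Egfr* (-0.14) passed neither test, and *Itgb6*, *Itga2*, *Ptprz1*, *Cntn1* and *Itga4* were below the filter.

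Of the signalling lists, none had a gene past the main test. In the TGF-beta and BMP list, 31 genes were tested with a median of -0.07, and limma called *Id2* higher and *Id3* and *Ltbp1* lower. The ligand genes *Tgfb1*, *Tgfb2* and *Tgfb3* differed by 0.95, 0.28 and 0.44 and the receptor gene *Tgfbr2* by -0.05, without passing. In the Wnt list (23 tested, median -0.17) limma called *Sfrp4*, a secreted inhibitor, lower, and in the list of YAP and SRF targets (20 tested) *Cyr61* higher. The median of the latter was -0.02 in the summed libraries, 0.44 in the log2 mean over cells and 0.43 over thinned cells. Its member *Ankrd1*, a muscle ankyrin repeat protein, rose in edgeR on thinned cells (adjusted p = 0.0278), with 0 reads in both Tnc-negative and 364 and 2640 reads in Tnc-positive libraries, 85.4% and 74.1% of them in a single cell. *Ctgf* was higher in the summed libraries of both tumors at 0.79 ± 0.27 without passing, and its mean log2(RPKM + 1) differed by 0.10. Of 28 growth factor and receptor genes, limma called *Igfbp2*, *Igfbp3*, *Nrg1* and *Angptl4* higher. *Igfbp2* had a log2 fold change of 0.00 ± 0.17 in the summed libraries, and *Igfbp7* of -0.32 ± 0.22. The inflammatory list (27 tested, median 0.11) and the immediate early list (23 tested, median 0.09) had no gene past the main test or limma on all cells. Within the first, *Ptgs2*, the gene of an inducible prostaglandin synthase, rose in edgeR on thinned cells (adjusted p = 0.0311), with 36 and 0 reads in Tnc-negative and 1708 and 1426 in Tnc-positive libraries, 96.5% and 33.5% of the latter in a single cell. *Ccl2* and *Ccl7* were higher in both tumors (2.11 and 1.53) and *C3*, *C4b* and *C1s1* lower in both (-1.40, -1.47 and -0.99), without passing. *Cxcl14* and *Ccl11*, its most abundant members, differed by -0.41 and 0.21, and *Fos* and *Dusp1* of the second by 0.05 and -0.26.

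Of 23 glycolysis and hypoxia genes tested, 11 were higher in both tumors and 0 lower, with a median of 0.08 in tumor 1 and 1.65 in tumor 2, and no gene passed either test. *Ldha* and *Aldoa*, glycolytic enzymes, had log2 fold changes of 0.28 and 0.06 in tumor 1 and 1.05 and 1.01 in tumor 2. Several glycolytic genes have close pseudogene copies that could take part of their reads. The cell cycle list (19 tested) had medians of 4.03 and -2.06 in the tumors and no call, its genes being read in few cells. *Top2a*, *Birc5*, *Mki67* and *Ccnb1* together had a read in 11.9% and 16.7% of Tnc-negative and 25.0% and 17.5% of Tnc-positive cells. Epithelial, dCAF, immune, endothelial and adipocyte lists, with 12, 8, 5, 5 and 4 genes past the filter, had no gene past either test.

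**Figure D4:**
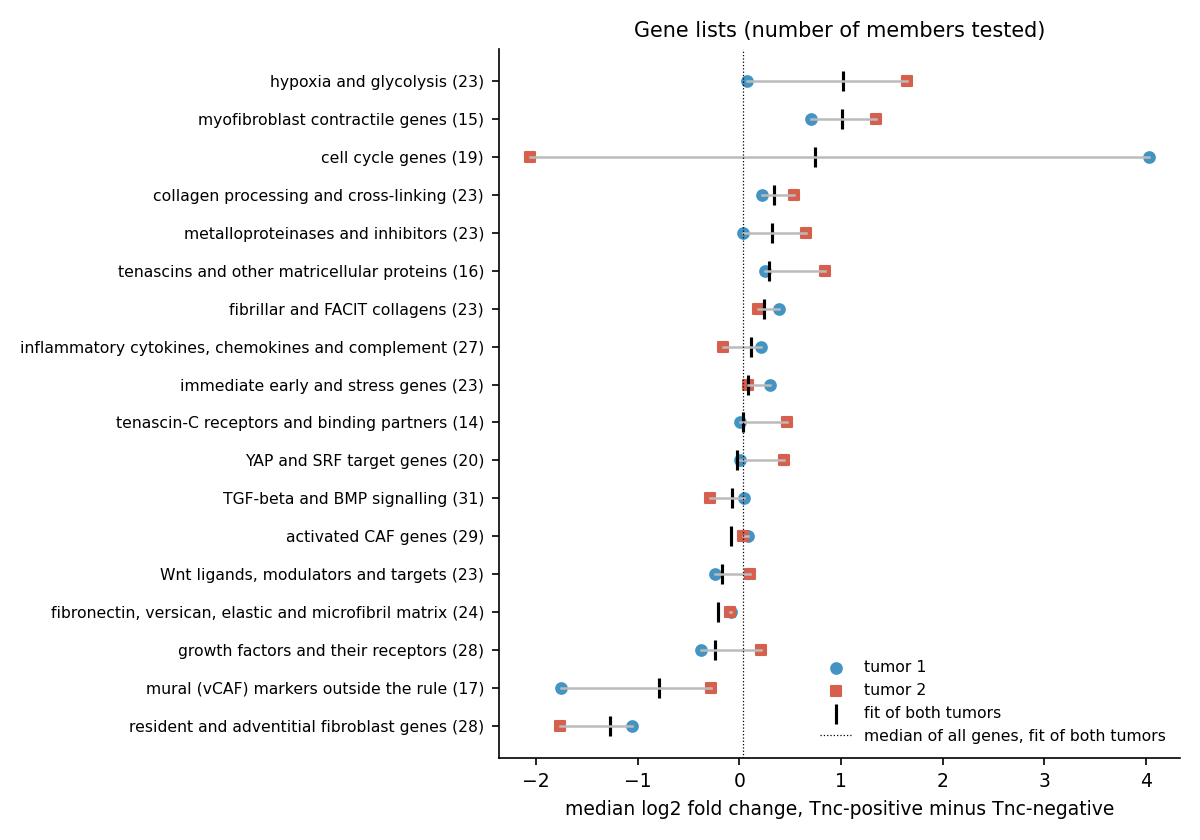
Median log2 fold change between Tnc-positive and Tnc-negative mCAF-like cells for 18 gene lists, in tumor 1 (circles), tumor 2 (squares) and the fit of both (bars), with the number of members tested. The contractile list lies at 0.71 and 1.35 and the resident fibroblast list at -1.05 and -1.77, while the dotted line marks the median of all genes at 0.03.

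Across all mCAF-like cells of a tumor (96 and 90 cells, which share a plate and differ in depth), the genes whose log2(RPKM + 1) followed *Tnc* most closely, ranked by the lower Spearman rho of the tumors, included *Ncam1* (0.572 and 0.486), *Jph2* (0.475 in both), *Ckap4* (0.445 and 0.496), *Gpx3* (0.482 and 0.409), *Col12a1* (0.576 and 0.401), *Moxd1* (0.490 and 0.395) and *C1qtnf3* (0.393 and 0.388). *Ckap4*, a membrane protein of the endoplasmic reticulum, was 0.98 ± 0.19 higher in Tnc-positive cells, and *C1qtnf3*, a secreted C1q-like protein, 3.26 ± 0.51 higher. *C1qtnf3* rose in edgeR on thinned cells (adjusted p = 0.0311). *Jph2* was weakly expressed, with a mean RPKM of 2.55. *Tnc* itself had a rho with the endogenous reads of a cell of 0.149 and 0.106, and with the number of genes of 0.366 and 0.0612.

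The same split was made in vCAF-like cells, 74 and 61 of which were Tnc-positive and 164 and 141 Tnc-negative, to ask whether the differences were the same in the other gate. In vCAF-like cells alone, edgeR with the tumor as a block called 40 genes higher (0.358%) and 5 lower (0.0448%) among 11170. In 1 edgeR fit of the 8 libraries, 0 of 10390 genes (0%) passed for a difference between the contrasts, with 630 at an unadjusted p under 0.05. That fit also called 0 genes in the contrast within either gate (1058 in mCAF-like and 501 in vCAF-like cells at an unadjusted p under 0.05), so its count of 0 says little, and for the genes below the contrasts were not shown to differ. *Acta2* and *Tagln* had log2 fold changes of 1.42 ± 0.26 and 2.07 ± 0.42 in mCAF-like cells and 1.31 ± 0.25 and 1.74 ± 0.40 in vCAF-like cells. *Col1a1* differed by 0.47 ± 0.12 and 1.03 ± 0.12. *Ncam1* was higher with *Tnc* in mCAF-like cells (2.38 ± 0.45) and lower in vCAF-like cells (-1.45 ± 0.50), a difference of 3.84 ± 0.67 (adjusted p = 0.494). *Apod* had a log2 fold change of -2.02 ± 0.18 in mCAF-like and -0.54 ± 0.18 in vCAF-like cells, and *Mgp* of -0.997 ± 0.11 and 0.21 ± 0.11 (adjusted p of the difference 0.471 and 0.399). The largest difference among the genes of this paragraph was that of *Igfbp2*, 0.00 ± 0.21 in mCAF-like and 3.94 ± 0.28 in vCAF-like cells (adjusted p of the difference 0.196).

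**Figure D5:**
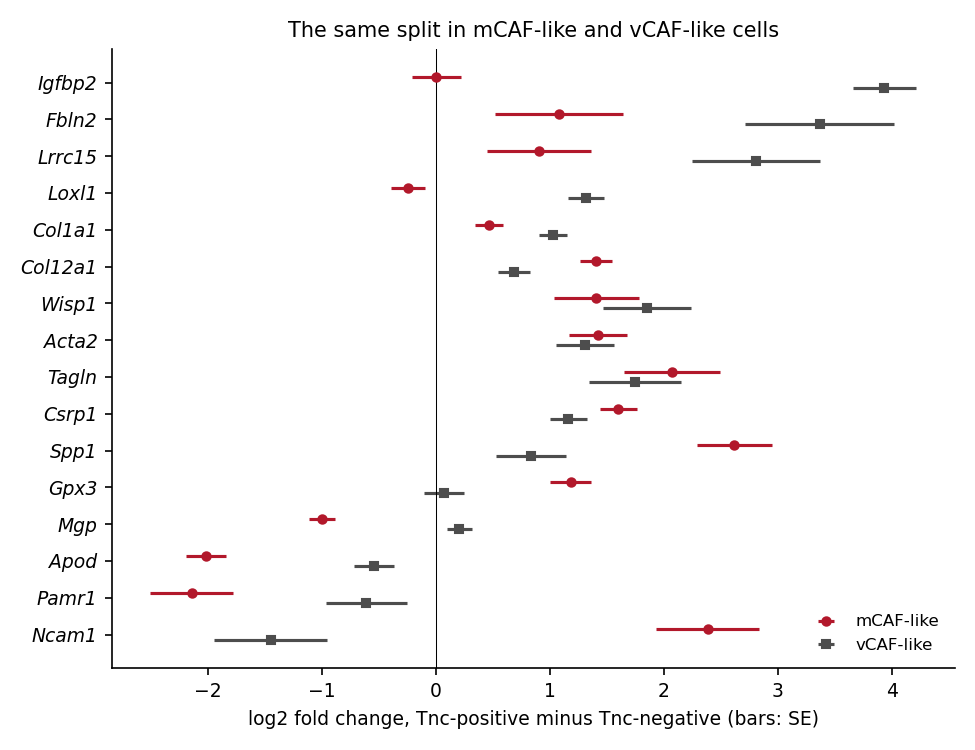
log2 fold change between cells with at least 5 and cells with 0 *Tnc* reads for 16 genes, in mCAF-like (red circles) and vCAF-like cells (grey squares), with SE, from 1 edgeR fit of 8 summed libraries. *Acta2* and *Tagln* lie close together in both gates, and *Igfbp2* and *Ncam1* lie far apart without an adjusted p of the difference under 0.05.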

How the data were processed

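Single cells of 2 MMTV-PyMT tumors were sequenced by Smart-seq2 as 43-bp single-end reads. The authors aligned them to mm10 with STAR and deposited raw read counts per RefSeq gene and RPKM values made with rpkmforgenes, for 24490 endogenous genes and 92 ERCC spike-ins in 768 wells. Every well was mapped to its tumor by the plate in its label. The gates, classes and gene lists were chosen with earlier results of these data known, so no list is independent evidence. No doublet caller was run, the wells having been sorted as single cells.

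Deposited counts were summed per tumor and class into 4 libraries of 10236195 and 4783490 (Tnc-negative) and 13067912 and 13774306 reads (Tnc-positive). Genes whose mean RPKM reached 1 were fitted in edgeR 4.0.16 by the quasi-likelihood test after TMM scaling, calling at 0.05 after Benjamini-Hochberg adjustment. Each SE of an edgeR log2 fold change is its absolute value divided by the square root of the test's F statistic. The tumor was a block, since both classes were taken from each tumor. Deviations of same-tumor libraries correlated by -0.0338, so the pairing comes from the design. limma 3.58.1 was run on the mean log2(RPKM + 1), with a pseudocount of 1 that understates changes of low genes, and DESeq2 1.42.0 on the counts. The labels name no separate culture or animal beyond the 2 tumors. With the tumor as a block, p-values rest on how the class difference varied between these 2 tumors. In edgeR this spread was partly shared across genes. In limma on all cells only the spread common to genes of the same level was used, and none of a gene's own. Values of single tumors come from a fit with the common dispersion of 0.265. Folds against 0 reads use a floor of 3 reads per library. Genes were named by a rule: *Tnc*; up to 10 called genes per direction that moved alike in both tumors and were read in at least 20% of cells of the higher class, filled up to 5 by lowest p; called or else the most abundant members of each list; and the 8 genes most correlated with *Tnc*. Other list members, *Sepp1* and *Mgp* were named after their values were seen. Values of 2 further genes are not reported here. Scripts were tested on simulated data. The thinned and stricter-gate limma fits and the vCAF-like comparison were chosen after seeing the data. Sequences and positions come from RefSeq (GRCm38.p6) by symbol.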

Additional observations from a re-analysis of the deposited data

How the results depend on the processing

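Apart from *Tnc*, the main test called 1 gene. It called 0 without the tumor as a replicate block and 0 at an adjusted p of 0.001, 2 with no filter on RPKM, 2 with ERCC totals as the library size, 3 with at least 20 *Tnc* reads, 6 with the mCAF mean at 6 or more and 22 with thinned cells. DESeq2 called 219, limma on mean log2(RPKM + 1) 173, with a pseudocount of 0.1 126, on thinned cells 10 and with the mCAF mean at least 2 above the vCAF mean 123. The cause of these differences was not tested. The count stayed at 1 with DESeq2's size factors, a mean RPKM of at least 10, cells of at least 100000 reads, 1 *Tnc* read, the stricter gate, or without wells with an *Epcam* read. DESeq2 and limma on all cells shared 79 calls. ERCC totals moved the median of all genes to 0.365. With a tumor left out no spread remains and no test could be made, and the immune list had no member left at a mean RPKM of 10. *Mmp10* kept its direction under every alternative run and lost its call without the block (adjusted p = 0.221), in limma with a pseudocount of 0.1, in limma on thinned cells (0.192) and at the threshold of 0.001. *Igfbp2* turned from 0.00 to 1.48 and 2.11 in limma with either pseudocount, and the sign of *Col3a1*, *Sparc*, *Postn*, *Bgn*, *Anxa2*, *Serpine2*, *Fzd1* and *Cxcl14*, called in neither test, also turned from lower to higher in limma. The share of Tnc-positive cells, 56.7%, was 46.9% with at least 20 reads, ranged from 50.0% to 63.3% without a tumor, and moved by less than 1 SD under the other settings. The medians of the contractile, collagen, collagen-processing, matricellular, metalloproteinase, hypoxia, mural and resident lists kept their sign under all 19 alternatives (contractile 0.71 to 1.38, resident -1.77 to -0.56), and those of the TGF-beta, Wnt, YAP and SRF, activated CAF, elastic matrix, receptor, growth factor, inflammatory, immediate early, cell cycle and non-mural marker lists did not.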

Other observations

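The 15 mCAF-like cells with 1 to 4 *Tnc* reads, 6 in tumor 1 and 9 in tumor 2, entered no comparison. Their median log2(RPKM + 1) of *Lrrc15* was 7.40 and 6.15, that of *Col12a1* 8.83 and 7.64 and that of *Spp1* 8.84 and 9.76, and *Pamr1* was read in 33.3% of them in each tumor. *Apod* had 27795 reads in the 9 cells of tumor 2, of which 96.7% were in a single cell.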
